A study of Mus musculus with 2 samples.

Results

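Desmin, filamin and Z-disc-like scaffold genes are described here as a group of 9 of the 32287 features counted: *Des*, *Synm*, *Xirp1*, *Synpo2*, *Flna*, *Flnc*, *Pdlim3*, *Pdlim7* and *Csrp1*. They were selected by symbol, and their levels across cell types and smooth muscle cell (SMC) subsets were known when they were selected, so those levels are given as a description without a test. Single-cell transcriptomes came from the thoracic aortas of 2 GFPiSMC mice on the C57BL/6J strain, 1 wild-type group (n = 2 aortas). These animals carry Myh11-CreERT2, a tamoxifen-inducible recombinase driven by an SMC promoter, and the mT/mG reporter, which changes from tdTomato to eGFP after recombination; their TGF-β receptors were intact. By their labels, both received tamoxifen (1 mg per day for 5 days from 3 weeks of age) and were studied at 12 weeks. Both were male according to the methods. The paper's methods give a higher daily dose, started at a later age, for mice studied at 12 weeks. That difference is not settled here, and it bears on the time between recombination and the reporter comparison. Cells were sorted after digestion in the cold, each aorta being 1 droplet library. The labels name gates for single and viable cells, whereas the paper's methods describe a gate for GFP-positive SMCs. Its supplement, however, shows data from aortic cells of 2 such mice in which fibroblasts stood beside SMCs. Most analyzed cells were of other types. A tdTomato transcript was found in 93.1% and 90.4% of cells of the largest endothelial cluster. These samples are therefore read as aortic cells without a GFP gate. There was no second treatment or genotype, and the comparisons are between cells of the same aortas.

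In SMCs the contractile filaments are not arranged in sarcomeres. Actin filaments end in cytoplasmic dense bodies and in dense plaques at the membrane, which hold α-actinin and correspond to the Z-discs of striated muscle, and desmin intermediate filaments tie the dense bodies together. Filamins cross-link actin and connect it to integrins, and PDZ-LIM and cysteine-rich LIM proteins dock on α-actinin. Mutations of *DES* and *FLNC* in humans cause disease of striated muscle, and mutations of *FLNA* cause disorders that can include enlargement of the aorta.

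The deposited libraries held 8947 and 6263 cells and 47009780 and 30919996 UMIs (unique molecular identifiers, the tags by which captured RNA molecules are counted). After filtering, 6539 and 4614 cells with a median of 5671 and 5396.5 UMIs were analyzed, and the 2 libraries shared 18 cell barcodes, 10 of them among the analyzed cells. Clusters were named from marker genes, so a name such as SMC is to be read as SMC-like. SMCs numbered 2219 and 1609 cells (33.9% and 34.9%) and fibroblasts 1402 and 1018. The other named types were endothelial cells (739 and 652), lymphatic endothelial cells (47 and 76), mesothelial cells (275 and 159), myeloid cells (858 and 539), neutrophils (46 and 37), lymphocytes (623 and 364) and erythroid cells (28 and 14). The remaining 302 and 146 cells were unnamed, most of them in 2 clusters with markers of both SMCs and fibroblasts.

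Levels are given in CPM, the UMIs of a gene divided by all UMIs of the cell group and scaled to 1000000, in aorta 1 and then aorta 2. Reads were taken from the 3′ end, so CPM counts molecules and is not divided by transcript length. Among the 9 genes, 8 had their highest mean level in SMCs; the exception was *Flnc*. In fibroblasts, endothelial, mesothelial and myeloid cells and lymphocytes, which had at least 100 cells in both aortas, no member reached the SMC level. SMCs held 40.4% and 42.0% of all UMIs but between 68.2% (*Synm* in aorta 2) and 98.0% (*Xirp1* in aorta 1) of the UMIs of a member. The plot of levels by cell type shows *Xirp1* and *Synpo2* low in every other type, while *Des* had a lower second level in mesothelial cells and other members had further sites of expression.

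**Figure D1:**
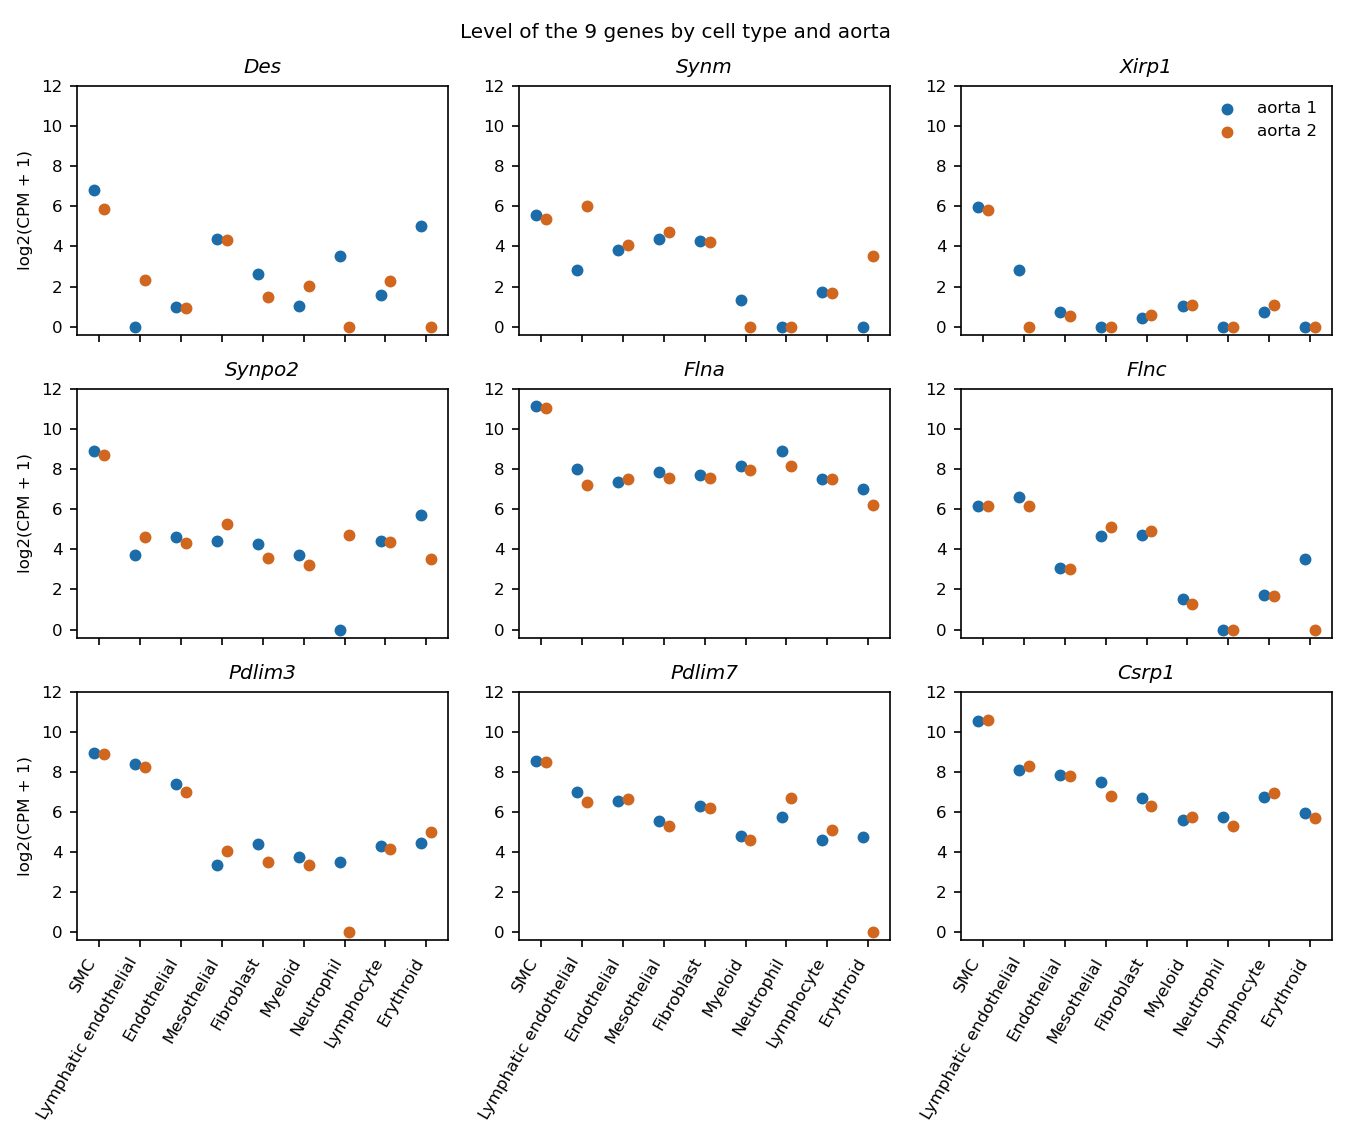
Level of each of the 9 genes as log2(CPM + 1) in 9 named cell types, 1 point per aorta. *Xirp1* lies near 0 outside SMCs, *Pdlim3* steps down from SMCs through lymphatic endothelial to endothelial cells, and *Flnc* in lymphatic endothelial cells reaches its SMC level; points of neutrophils, erythroid and lymphatic endothelial cells rest on few cells.

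*Des* (ENSMUSG00000026208, chr1:75360329-75368579, plus strand, GRCm38) encodes desmin, the main intermediate filament of muscle. Its level in SMCs was 111 and 56.5 CPM, from 1839 and 657 UMIs, a mean of 83.7 ± 38.3 (SD, n = 2). In proportion to the mean, this spread between aortas was the widest among the members. Mesothelial cells came next with 19.8 and 18.6 CPM, from 36 and 19 UMIs, below both SMC values, though erythroid cells, with 6 and 0 UMIs, overlapped them. Fibroblasts had 5.19 and 1.81 CPM, and lymphocytes gave 6 and 7 UMIs. The SMC level was 21.4 and 31.2 times that of fibroblasts, and the log2 ratio of the means fell from 4.58 to 3.33 with the 2 clusters with markers of both types counted as fibroblasts. Cardiac and skeletal muscle also make desmin, and of their markers some were near 0 in SMCs: *Myh6* gave 15 and 3 UMIs, *Myl2* 1 and 0, *Acta1* 11 and 6, and *Myh4* none. The 5 cardiomyocyte markers summed to 51.4 and 47.8 CPM in SMCs, of which the calcium release channel *Ryr2* contributed 48.0 and 46.0 CPM, and the 5 skeletal muscle markers to 19.0 and 19.3 CPM, of which the creatine kinase *Ckm* contributed 13.1 and 12.7 CPM. In mesothelial cells the cardiomyocyte list summed to 1029 and 805 CPM, 1021 and 799 of it from *Myl7*, an atrial myosin light chain, with *Myh6* at 1 and 0 UMIs; the part of other cells in the mesothelial *Des* level was not tested.

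*Synm* (ENSMUSG00000030554, chr7:67730160-67759742, minus strand) encodes synemin, which joins desmin or vimentin filaments and links them to dense plaques. Its SMC level was 47.1 and 40.1 CPM, below *Des* in both aortas, and it was shared with other structural cells. Mesothelial cells had 19.8 and 25.5 CPM, fibroblasts 18.0 and 17.6 CPM, and endothelial cells 13.2 and 15.8 CPM. These values lay below both SMC values, with SMC to fibroblast ratios of 2.62 and 2.27. Lymphatic endothelial cells gave 6.00 and 63.1 CPM from 1 and 16 UMIs, so their place in the order was not set by these data. *Ttc23*, which overlaps *Synm* on the other strand, had 13.4 and 15.8 CPM in SMCs and 13.6 and 13.0 CPM in fibroblasts, and whether the counting used strand was not stated in the sources used here.

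*Xirp1* (ENSMUSG00000079243, chr9:120013755-120023598, minus strand) encodes Xin, an actin-binding repeat protein of cardiac and skeletal muscle junctions. It had the narrowest distribution of the 9 genes. SMCs gave 60.8 and 55.3 CPM, from 1010 and 642 UMIs, and no other type gave more than 6 UMIs in an aorta. Fibroblasts gave 3 UMIs in each aorta, against which the SMC level was higher by a ratio with exact 95% counting intervals of 60.04 to 855 (aorta 1) and 38.04 to 543 (aorta 2). With doublets kept, the log2 ratio of the means fell from 7.11 to 5.56, below the aorta 1 interval. The annotation of *Xirp1* overlaps on the same strand that of *Cx3cr1*, a chemokine receptor gene that was detected at 161 and 134 CPM in myeloid cells and at 0.361 and 1.55 CPM in SMCs, the reverse of *Xirp1*.

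*Synpo2* (ENSMUSG00000050315, chr3:123076519-123236149, minus strand) encodes myopodin, a partner of filamin and α-actinin at Z-discs and dense bodies. It was present at 486 and 420 CPM in SMCs. Every other named type had 51.6 CPM or less, and the types of at least 100 cells had between 8.16 and 37.3 CPM. Mesothelial cells, endothelial cells and lymphocytes overlapped, so no order was read among them.

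*Flna* (ENSMUSG00000031328, chrX:74223461-74249820, minus strand) encodes filamin A, the broadly expressed filamin, and was the most abundant member. SMCs had 2267 and 2088 CPM, 11.01 and 11.02 times the fibroblast level. Outside SMCs its highest means were in leukocytes. Neutrophils had 482 and 282 CPM and myeloid cells 281 and 251 CPM, the latter above mesothelial cells (234 and 184 CPM). Fibroblasts had 206 and 190 CPM, lymphocytes 179 and 179 CPM and endothelial cells 162 and 182 CPM, and the last 2 types overlapped.

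*Flnc* (ENSMUSG00000068699, chr6:29433256-29461883, plus strand) encodes filamin C, the muscle filamin. Its SMC level of 71.4 and 71.7 CPM was about as close between the aortas as counting allows and far below that of *Flna*. Lymphatic endothelial cells had 96.1 and 70.9 CPM, from 16 and 18 UMIs, which overlapped the SMC range. Fibroblasts had 25.7 and 29.4 CPM and mesothelial cells 24.8 and 33.4 CPM, overlapping each other and below SMCs. Vascular endothelial cells had 7.27 and 7.04 CPM.

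The LIM-domain members were in SMCs and, at lower level, in both kinds of endothelium. *Pdlim3* (ENSMUSG00000031636, chr8:45885461-45919548, plus strand) encodes the α-actinin-associated LIM protein. It had 499 and 472 CPM in SMCs, 342 and 300 CPM in lymphatic endothelial cells and 167 and 125 CPM in endothelial cells, 3 levels that did not overlap. Fibroblasts had 20.1 and 10.4 CPM. *Pdlim7* (ENSMUSG00000021493, chr13:55495795-55513676, minus strand) encodes enigma, which binds tropomyosin and α-actinin. Its SMC level was 369 and 365 CPM, with 126 and 90.6 CPM in lymphatic endothelial cells, 94.6 and 98.1 CPM in endothelial cells and 77.8 and 72.1 CPM in fibroblasts. *Csrp1* (ENSMUSG00000026421, chr1:135720061-135752232, plus strand) encodes a cysteine-rich protein that binds α-actinin and zyxin. It had 1504 and 1566 CPM in SMCs, 270 and 315 CPM in lymphatic endothelial cells, 231 and 223 CPM in endothelial cells and 104 and 77.8 CPM in fibroblasts.

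Many SMC genes are activated through CArG boxes, the sites of serum response factor, and the start regions of the members were searched for them. RefSeq windows on GRCm38.p6 (250 bases before to 50 after a start) were found for 8 members, 10 windows in all; *Xirp1* had none. An exact CArG box was in 0 of 10 windows and in 1.63% of all 32851 windows. A CArG box with 1 mismatch was in 4 of 10 windows, against 19.9% of all, and these 4 stretches are shown 5′ to 3′ on the strand of the gene, with the box in capitals, because they are the closest matches among genes that were all high in SMCs.
Flna, chrX:74246559-74246588: ctttcgcataCATTTAAAGGgctcgctctt
Flnc, chr6:29432980-29433009: tgtccctcatCCCTAAATGGctaagactag
Pdlim3, chr8:45885377-45885406: tctctcacttCCAAAGTTGGagctctcctt
Synm, chr7:67759962-67759991: caacggggagCCTCATAAGGtgtcccagat
The boxes began 44, 163, 100 and 239 bases before the start. A MEF2 site was in 1 window, that of *Synpo2*, 236 bases before its start (chr3:123236366-123236395, agcccggctaCTATTTATAGaataattaaa, site in capitals), against 3.19% of all windows. The MCAT element CATTCC, on either strand, was in 4 windows of *Flna*, *Flnc* and *Pdlim3*, against 14.7%. The E-box CANNTG was in 6 of 10 windows, against 72.3%. A match in these letters is not a site shown to be bound.

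RNA freed from broken SMCs can enter other droplets, so levels outside SMCs were read beside 7 SMC markers (*Myh11*, *Acta2*, *Tagln*, *Cnn1*, *Smtn*, *Lmod1* and *Myl9*). In lymphocytes these markers lay at 2.44% to 3.28% of their SMC level in aorta 1 and at 2.87% to 5.04% in aorta 2. *Xirp1* (1.09% and 2.01%) and *Flnc* (3.26% and 3.09%) did not exceed that range, and *Synpo2* (4.11% and 4.62%), *Pdlim3* (3.74% and 3.52%) and *Des* (1.80% and 6.86%) exceeded it in 1 aorta only. *Synm*, *Flna*, *Pdlim7* and *Csrp1* exceeded it in both aortas, *Flna* with 7.90% and 8.60%. In fibroblasts *Smtn* was at 11.1% and 10.4% and the other 6 markers at no more than 4.82% and 3.96%. Above *Smtn*, 3 members stood in both aortas: *Synm* (38.2% and 44.0%), *Flnc* (36.0% and 40.9%) and *Pdlim7* (21.1% and 19.7%). *Flna* (9.08% and 9.07%) and *Csrp1* (6.94% and 4.97%) lay below *Smtn* but above the other markers. *Des*, *Synpo2* and *Pdlim3* did not exceed 4.68% and *Xirp1*, at 0.568% and 0.896%, lay below all 7 markers. The part of freed RNA in these values was not tested. In endothelial cells the markers reached 7.27% and 8.51%, and *Pdlim3* (33.5% and 26.5%), *Synm* (28.1% and 39.5%), *Pdlim7* (25.6% and 26.9%), *Csrp1* (15.3% and 14.2%) and *Flnc* (10.2% and 9.82%) exceeded them. In mesothelial cells, where the markers reached 10.7% and 12.3%, *Des* (17.9% and 33.0%), *Synm* (42.1% and 63.6%) and *Flnc* (34.7% and 46.5%) exceeded them in both aortas. In myeloid cells, where they reached 2.83% and 2.20%, *Flna* (12.4% and 12.0%), *Pdlim7* (7.40% and 6.47%) and *Csrp1* (3.16% and 3.41%) did so.

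SMCs of the thoracic aorta come from several embryonic sources and keep regional transcription factors. Reclustering of SMCs gave a subset with *Hand2* and *Tbx20* (501 and 232 cells), a subset with *Dlx5*, *Dlx6*, *Msx1* and *Msx2* (255 and 277 cells, called the Dlx6/Msx2 subset) and a subset positive for posterior Hox genes such as *Hoxa7* and *Hoxb7* (290 and 257 cells). *Dlx6* was at 100 and 95.5 CPM in the Dlx6/Msx2 subset and at most 2.93 CPM in the others, and *Hand2* was at 104 and 90.6 CPM in its own subset. The other SMCs were in no subset. The members and the scaffold list described later were left out of the clustering that made the subsets.

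The Dlx6/Msx2 subset had the lowest mean level of 7 of the 9 genes, and the plot of levels by subset shows the sizes. *Des* had by far the widest range. It was at 208 and 94.96 CPM in the Hand2 subset, at 85.0 and 94.6 CPM in the Hox subset and at 6.76 and 2.27 CPM in the Dlx6/Msx2 subset, where 15 and 5 UMIs were counted. The Hand2 subset exceeded the Dlx6/Msx2 subset by 30.8 and 41.7 times and the Hox subset did so by 12.6 and 41.6 times. These folds rest on few UMIs: the mean of 4.52 CPM in the Dlx6/Msx2 subset was 7.30 CPM with doublets kept, 9.32 CPM with the UMI minimum raised, 10.02 CPM with no UMI limits and 13.5 CPM with subsets set by single cells, all below the other subsets. The Hand2 and Hox values of *Des* were nearly equal in aorta 2. In aorta 1 the Hand2 value was the higher, so their order rests on that aorta.

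**Figure D2:**
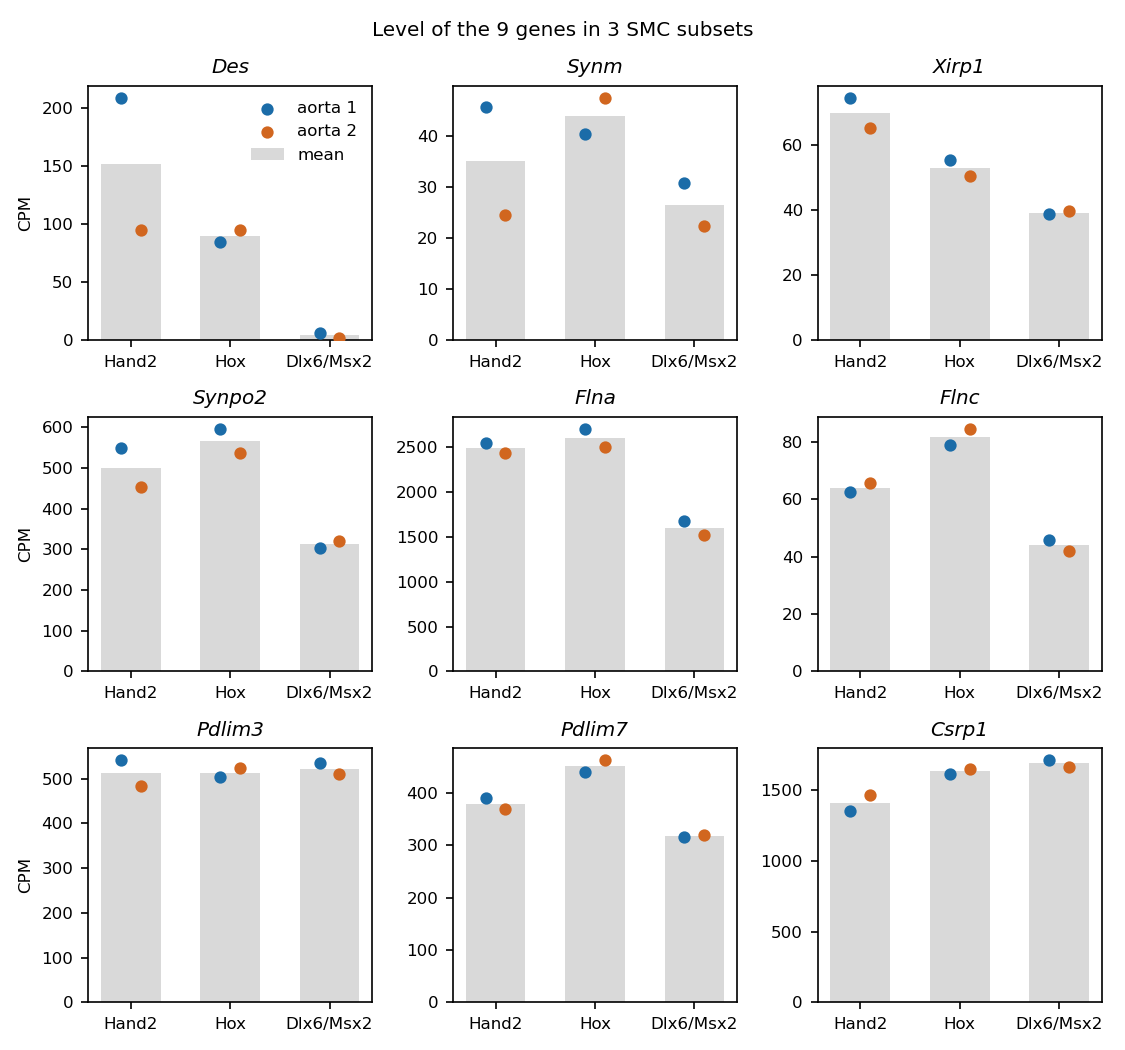
CPM of each gene in the Hand2, Hox and Dlx6/Msx2 subsets of SMCs, with 1 point per aorta and a bar at the mean of the 2 aortas. *Des* in the Dlx6/Msx2 subset is at 6.76 and 2.27 CPM against at least 85.0 CPM in the other subsets, while *Pdlim3* overlaps between the subsets and *Csrp1* is highest in the Dlx6/Msx2 subset.

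For the other 6 genes lowest in the Dlx6/Msx2 subset, the higher subset exceeded it by 2.12 times at most within an aorta (*Synm*). *Flna* had 1671 and 1524 CPM there, against 2548 and 2434 CPM in the Hand2 subset and 2699 and 2498 CPM in the Hox subset. *Synpo2* had 304 and 321 CPM, against 549 and 452 CPM and 595 and 536 CPM. For both genes the Hand2 and Hox values overlapped and both lay above the Dlx6/Msx2 subset. *Flnc* increased from 46.0 and 41.9 CPM through 62.6 and 65.6 CPM in the Hand2 subset to 79.0 and 84.5 CPM in the Hox subset. *Xirp1* had another order, with 38.8 and 39.6 CPM in the Dlx6/Msx2, 55.3 and 50.4 CPM in the Hox and 74.4 and 65.1 CPM in the Hand2 subset. *Pdlim7* had 316 and 319 CPM, 390 and 368 CPM in the Hand2 subset and 439 and 462 CPM in the Hox subset. *Synm* at 30.7 and 22.3 CPM overlapped the Hand2 subset (45.5 and 24.5 CPM) but not the Hox subset (40.3 and 47.3 CPM).

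*Pdlim3* and *Csrp1* were not lowest there. *Pdlim3* was at 534 and 511 CPM in the Dlx6/Msx2 subset, within the values of the Hand2 subset (541 and 484 CPM) and overlapping the Hox subset (503 and 524 CPM). *Csrp1* was at 1710 and 1663 CPM in the Dlx6/Msx2 subset, above the Hox subset (1615 and 1647 CPM) and the Hand2 subset (1353 and 1465 CPM). Among SMC markers, *Acta2* (13218 and 14137 CPM against at least 25067) and *Tagln* (7379 and 6930 CPM against at least 12818) were also lower in the Dlx6/Msx2 subset, while *Cnn1* was level (1794 and 1712 CPM against 1729 to 1977 CPM). Their part in the values of the members was not tested.

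Across 12 SMC subclusters with enough cells, the ranges were wider than across the 3 subsets, as the map of subclusters shows. *Des* gave 2 and 1 UMIs, under the floor of 3 counts, in a subcluster led by *Hhip* and *Chrdl2* (133 and 99 cells), which had the same Dlx and Msx markers at a summed 396 CPM against 298 CPM in the Dlx6/Msx2 subset. The order of *Des* between that subcluster and the Dlx6/Msx2 subset is not set by these counts. *Flna* (1038 and 1044 CPM), *Synpo2* (225 and 193 CPM), *Flnc* (20.3 and 21.9 CPM) and *Pdlim7* (187 and 206 CPM) were at their lowest in the *Hhip* subcluster. A subcluster led by *Pln*, *Pappa2* and *Notch3* (70 and 59 cells) had the highest *Synm* (150 and 122 CPM) and *Csrp1* (2364 and 2143 CPM) but low *Flnc* (36.6 and 39.2 CPM). *Flnc* peaked at 181 and 179 CPM in a subcluster led by *Vcam1* and *Timp1* (88 and 92 cells). *Xirp1* peaked at 124 and 89.0 CPM in a subcluster led by the immediate early genes *Fos* and *Fosb* and heat shock genes (173 and 151 cells), which can be induced during dissociation. In aorta 2 the *Vcam1* subcluster was close behind with *Xirp1* at 88.2 CPM, so this peak rests on aorta 1. The high *Pdlim3* value of 1048 and 695 CPM came from 66 and 64 cells with a median of 1857 UMIs.

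**Figure D3:**
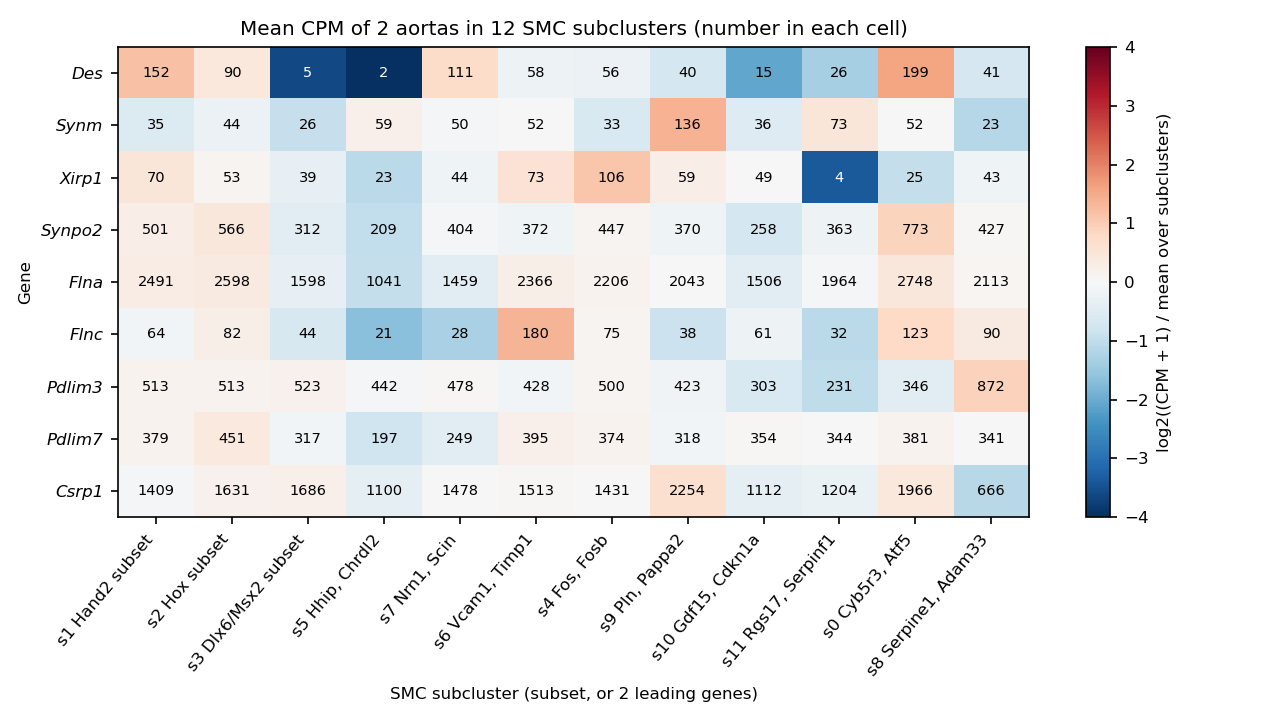
Mean CPM of the 2 aortas (number in each cell) of the 9 genes in 12 SMC subclusters, colored by log2 of CPM + 1 over its mean across subclusters. *Des* is near 0 in the Dlx6/Msx2 subset and the *Hhip* subcluster, *Flnc* peaks at 180 CPM in the *Vcam1* subcluster, and *Synm* and *Csrp1* peak in the *Pln* subcluster.

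One subcluster of 459 and 274 cells had a median of 1757 UMIs and a median mitochondrial share of 7.01%, and it also had high *Des* (288 and 109 CPM) and *Synpo2* (841 and 704 CPM). A subcluster led by *Nrn1* and *Scin* differed most between aortas for *Des*, with 15.6 and 206 CPM from 8 and 48 UMIs.

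*Des* was distributed over SMCs unlike the other members. The share of SMCs with a *Des* UMI was 15.3% (exact 95% interval 13.8 to 16.9) and 9.14% (7.77 to 10.7), whereas the same UMIs placed over cells in proportion to their depth would have reached 51.5% and 31.9%. The 5% of SMCs with most *Des* UMIs held 71.0% and 88.4% of them. Genes of like level were far more even. *Synm* was found in 24.5% and 21.1% of SMCs (28.3% and 24.2% if spread by depth), and the top 5% held 37.5% and 43.6%. *Xirp1* was found in 28.7% and 27.0%, and *Flnc* in 34.2% and 33.0%. *Flna* was found in 97.3% and 97.6%, *Csrp1* in 95.5% and 95.03%, *Synpo2* in 84.8% and 81.0%, *Pdlim3* in 81.9% and 83.6%, and *Pdlim7* in 79.6% and 79.4% of SMCs. The intervals cover counting error only. In lymphocytes, at a median of 4098 and 3901 UMIs against 7736 and 7491 in SMCs, a *Des* UMI was found in 0.642% and 1.10% of cells.

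**Figure D4:**
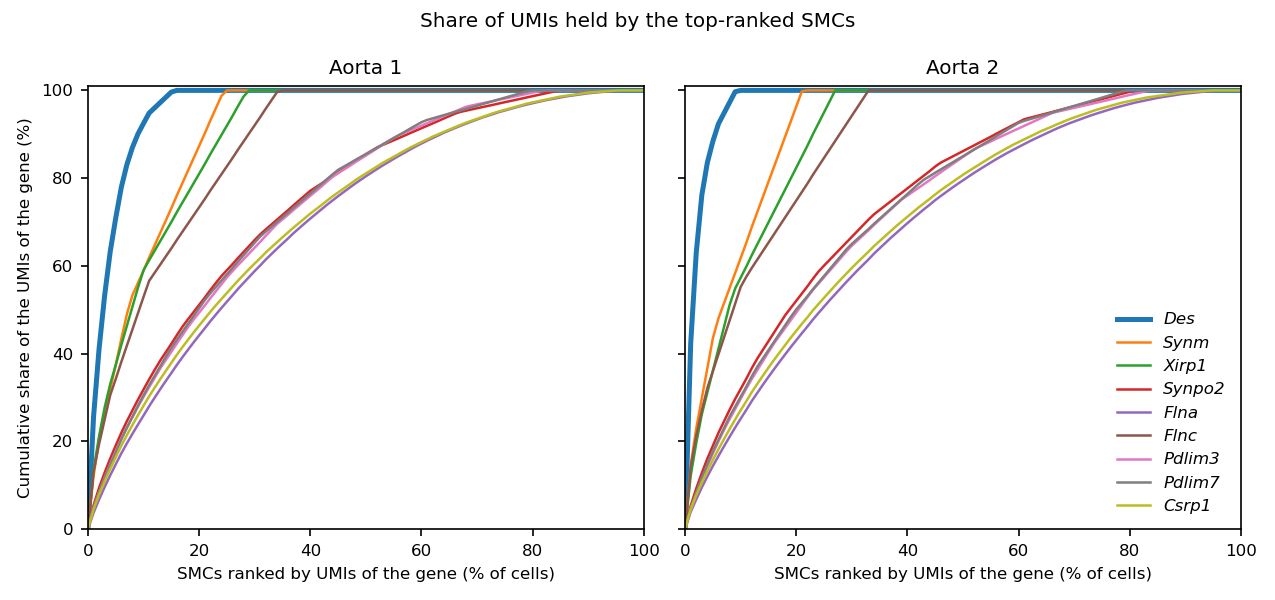
Cumulative share of the UMIs of each gene (y axis, %) against SMCs ranked from most to fewest UMIs of that gene (x axis, % of cells), 1 panel per aorta. The *Des* line reaches 71.0% and 88.4% at 5% of cells, while the lines of the other genes rise more slowly.

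Cells with at least 5 *Des* UMIs numbered 141 in aorta 1 (6.35% of SMCs) and 48 in aorta 2 (2.98%), and they held 79.8% and 75.5% of the *Des* UMIs of SMCs. Up to 39 and 46 UMIs were counted in 1 cell. In the Hand2 subset 16.2% and 5.60% of cells were of this kind, in the Hox subset 8.28% and 7.39%, and in the Dlx6/Msx2 subset 1 of 255 and 0 of 277 cells, the last allowing a share of up to 1.08% (3 counts of the total). A *Des* UMI was found in 28.7% and 13.8% of cells of the Hand2 subset but in 16.6% and 15.6% of the Hox subset, so the aortas were far apart in the first and close in the second. With each cell thinned to 1000 UMIs, *Des* was found in 7.43% and 3.89% of SMCs and *Flnc*, *Xirp1* and *Synm* in between 3.74% and 7.32%.

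The reporter was not used in choosing the genes, so all 9 were tested between SMCs with eGFP transcripts alone (2054 and 1457 cells) and the few with tdTomato alone (38 and 43 cells), all of them SMCs by their markers. Levels across the SMC subsets were known, and the 2 states held unlike shares of the subsets, given below. The test is thus not fully independent of the choice. Reporter UMIs were not exclusive to a cell type: a tdTomato UMI was found in 0% to 13.6% of cells of the SMC clusters, and an eGFP UMI in 17.8% to 25.1% of cells of the fibroblast clusters, so a tdTomato-only cell need not be an unrecombined one. *Des* was at 115 and 59.7 CPM in eGFP-only SMCs, where 323 and 138 cells had a UMI. In tdTomato-only SMCs it gave 0 and 2 UMIs. That made it at least 10.8-fold higher in eGFP-only SMCs of aorta 1, with the floor at 3 counts per library, and 8.44 times higher in aorta 2 (exact 95% counting interval 2.33 to 69.8). Both values count UMIs as independent, although few SMCs held most *Des* UMIs, so the uncertainty is wider than they show. As shares of cells, 0 of 38 in aorta 1 allows up to 7.89% (3 counts of the total) or 9.25% (exact 95% interval), against 15.7% of eGFP-only cells. In aorta 2, 2 of 43 is 4.65% (exact 95% interval 0.568 to 15.8), an interval that includes the 9.47% of eGFP-only cells. By edgeR's quasi-likelihood test with Benjamini-Hochberg adjustment, 0 of 9 members passed an adjusted p under 0.05 with an over 2-fold difference, against 0.0171% of the 11670 genes tested, and the adjusted p of *Des* was 0.853. With the aorta as a block the adjusted p of *Des* was 0.0307 and it passed. DESeq2 also passed 1 member, *Des*, with an adjusted p of 0.0310; over all alternatives that adjusted p ran from 1.89e-16 to 0.874. At an unadjusted p under 0.05, 4 of 9 members (*Des*, *Synm*, *Pdlim3* and *Pdlim7*, all higher in eGFP-only SMCs) and 5.37% of all genes passed. *Synm* had 24.9 and 24.7 CPM in tdTomato-only SMCs, from 7 UMIs each, against 48.1 and 40.9 CPM. *Pdlim7* had 320 and 286 CPM against 369 and 370 CPM, and *Pdlim3* 438 and 424 CPM against 501 and 475 CPM. The Dlx6/Msx2 subset made up 13.2% and 27.9% of tdTomato-only and 11.6% and 16.5% of eGFP-only SMCs, the Hox subset 5.26% and 4.65% against 13.4% and 16.5%, and the Hand2 subset 23.7% and 25.6% against 22.6% and 14.3%; the part of these shares in the *Des* values was not tested.

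The genes around the members were taken from a list of 69 further scaffold genes in 7 groups, of which 63 were abundant enough to test between SMCs and fibroblasts. The list was chosen with earlier results of these data known. Its shares beside those of all genes, here and between subsets below, are therefore descriptions. By edgeR's quasi-likelihood test, 39 passed as higher in SMCs, 7 passed as higher in fibroblasts and 17 passed in neither direction, with the same limits on adjusted p and fold as above. Over all 13678 genes tested 11% were higher in SMCs and 16.1% higher in fibroblasts, and the median log2 fold change was 1.55 for the list and −0.05 over all genes. The plot of the list by group shows each gene. With the size factors of DESeq2, which moved the median of all genes to −0.35, the counts were 34 and 9, and 27.9% in place of 40.5% of all calls were higher in SMCs.

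**Figure D5:**
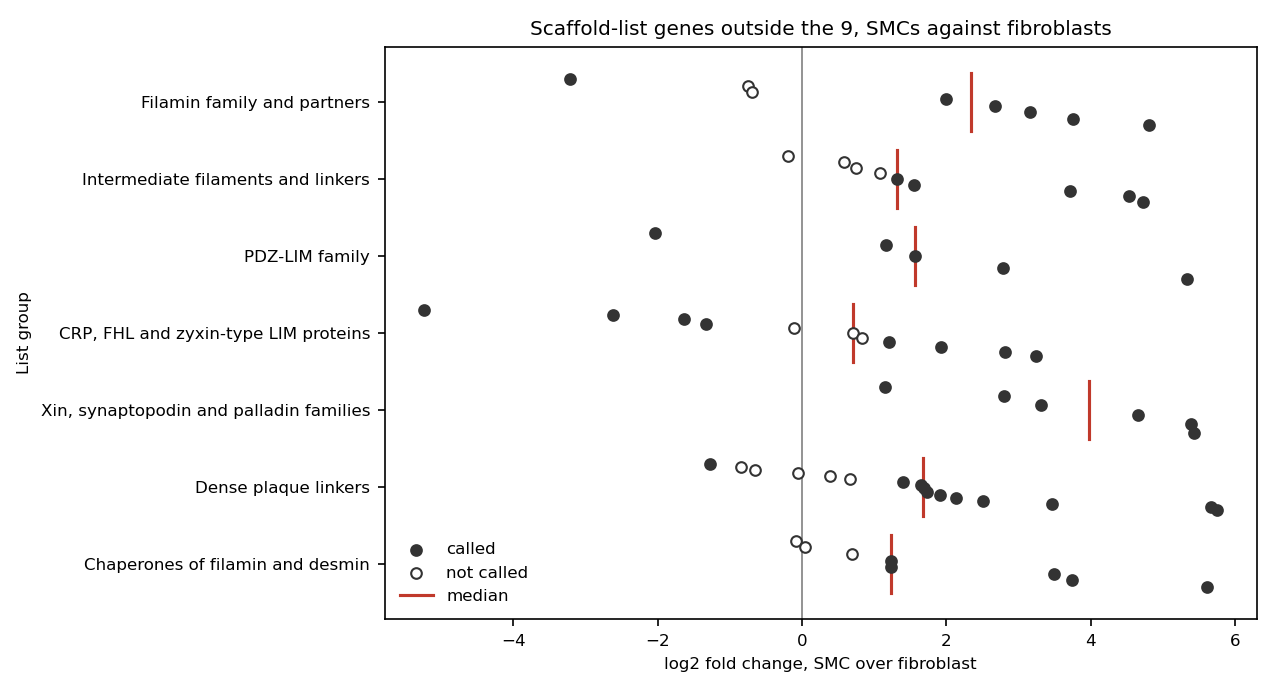
log2 fold change between SMCs and fibroblasts (positive, higher in SMCs) of the 63 tested scaffold-list genes, by group; filled points passed an adjusted p under 0.05 and over 2-fold, open points did not, and the red line is the group median. The 6 tested genes of the Xin, synaptopodin and palladin group lie to the right of 0, 3 of them with 7 UMIs or fewer per aorta in fibroblasts, while the CRP, FHL and zyxin-type group is split.

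Filamin partners were higher in SMCs for 5 of 8 genes. *Lmcd1*, a LIM protein that restrains GATA factors, was at 407 and 421 CPM in SMCs and 14.4 and 17.2 CPM in fibroblasts (log2 fold change 4.81 ± 0.19 SE, edgeR adjusted p = 4.46e-20). *Fblim1*, which joins filamin to integrin-bound kindlin, was at 1076 and 1038 CPM against 144 and 106 CPM, and *Filip1* at 156 and 143 CPM against 14.8 and 7.75 CPM. *Rflna*, a regulator of filamin, was higher in fibroblasts at 7.38 and 5.61 CPM against 0.723 and 0.516 CPM.

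Intermediate filament genes and linkers were higher in SMCs for 5 of 9 genes and in fibroblasts for 0. *Nes*, encoding nestin, was at 176 and 156 CPM against 7.72 and 5.11 CPM (log2 fold change 4.73 ± 0.16 SE). *Sync*, encoding syncoilin, a desmin partner, was at 55.1 and 47.7 CPM against 3.80 and 4.62 CPM. *Krt18*, a keratin of simple epithelia, was at 45.3 and 41.0 CPM against 3.11 and 0.330 CPM. Of 5 PDZ-LIM genes, *Ldb3* (cypher, a Z-disc protein, 71.3 and 64.8 CPM against 1.84 and 1.65 CPM), *Pdlim1*, *Pdlim4* and *Pdlim5* were higher in SMCs, and *Pdlim2* was higher in fibroblasts (373 and 416 CPM against 87.0 and 94.8 CPM, log2 fold change −2.03 ± 0.13 SE).

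The other LIM proteins were divided, 4 of 11 tested being higher in SMCs and 4 higher in fibroblasts. *Csrp2*, the closest relative of *Csrp1* on the list, was at 3804 and 3848 CPM against 448 and 405 CPM, above *Csrp1* itself, and *Lpp*, a zyxin relative of dense plaques, was at 986 and 958 CPM against 148 and 145 CPM. *Ablim1* (45.7 and 49.5 CPM in SMCs, 299 and 321 CPM in fibroblasts) and *Fhl2* (13.3 and 12.2 CPM, 48.6 and 35.0 CPM) were higher in fibroblasts, and *Ablim3* gave 0 and 2 UMIs in SMCs against 40 and 21. Those SMC counts were too few to have made *Ablim3* abundant enough to test, so its call is a description. *Csrp3*, the striated muscle relative of *Csrp1*, gave 0 UMIs in SMCs and fibroblasts of both aortas.

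In the Xin, synaptopodin and palladin group 6 of 10 genes passed the filter on low counts and were called higher in SMCs. *Nebl*, *Synpo2l* and *Myoz2* had so few UMIs in fibroblasts that the filter left only that direction open to them, as it did for *Actn2* among the dense plaque linkers. Other genes, such as *Sync*, *Krt18*, *Ldb3*, *Sorbs2* and *Hspb6*, were also too low in fibroblasts to have passed the filter there. *Rflna* and *Ablim3* were likewise too low in SMCs. Such genes are part of the group and list counts, and their calls are read as descriptions. *Nexn*, an actin-binding Z-disc protein, was at 465 and 414 CPM against 54.3 and 38.6 CPM. *Myoz2*, a calcineurin-binding Z-disc protein, was at 35.9 and 44.4 CPM against 0.807 and 1.15 CPM. *Nebl* gave 150 and 114 UMIs in SMCs and 2 and 1 in fibroblasts, and *Synpo2l*, the relative of *Synpo2*, 92 and 66 against 2 and 1. *Xirp2*, *Mypn*, *Myot* and *Myoz1* did not pass the filter on low counts. Of these, *Myoz1* gave 45 and 30 UMIs in SMCs and none in fibroblasts, and *Xirp2* and *Mypn* none in either. Dense plaque linkers were higher in SMCs for 10 of 16 genes, among them *Sorbs2* (111 and 92.4 CPM against 2.07 and 1.81 CPM, log2 fold change 5.76 ± 0.22 SE) and the α-actinin genes *Actn1* (1000.4 and 971 CPM against 97.4 and 92.0 CPM) and *Actn2* (221 and 105 UMIs against 3 and 0). *Tln2* was higher in fibroblasts (30.5 and 28.2 CPM against 10.9 and 12.0 CPM). Chaperones of filamin and desmin were higher in SMCs for 5 of 8 genes. *Hspb6* was at 207 and 182 CPM against 4.38 and 3.96 CPM (log2 fold change 5.61 ± 0.16 SE, edgeR adjusted p = 3.99e-23), *Hspb1* at 2071 and 1585 CPM against 164 and 125 CPM, and *Hspb7* at 216 and 227 CPM against 20.5 and 21.1 CPM. *Bag3* and *Stub1* did not pass.

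Between the 3 SMC subsets, 15 of the 58 list genes tested passed (25.9%), against 11% of the 10627 genes tested. Of these 15, 12 were lowest in the Dlx6/Msx2 subset, against 460 of 1168 (39.4%) over all genes. *Krt18* had 9.92 and 11.8 CPM there, 55.3 and 66.6 CPM in the Hand2 subset and 49.0 and 36.8 CPM in the Hox subset (edgeR adjusted p = 1.37e-07). *Crip1*, a small LIM protein, had 467 and 389 CPM, 2125 and 1810 CPM, and 1329 and 1235 CPM in the same order. *Actn4*, the α-actinin of stress fibers, had 231 and 221 CPM, 478 and 436 CPM, and 659 and 576 CPM, and *Actn2* 4.96 and 4.55 CPM, 19.7 and 11.7 CPM, and 13.3 and 12.5 CPM. *Lmcd1*, *Filip1l*, *Crip2*, *Hspb1*, *Sync*, *Ldb3*, *Myoz2* and *Synpo2l* were also lowest in the Dlx6/Msx2 subset. The other 3 were highest there: *Ablim1* at 103 and 92.8 CPM against 13.0 and 19.1 CPM in the Hand2 subset, *Rflnb* at 15.8 and 14.6 CPM against 3.45 and 1.96 CPM, and *Tln2* at 18.5 and 24.6 CPM against 7.33 and 9.39 CPM in the Hox subset.

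The genes most like each member were taken by Pearson correlation of log2(CPM + 1) over 38 sums, 11 SMC subclusters and 8 other types in each aorta, among 10849 genes. These sums share the libraries and differ in depth, so the values are descriptions. *Flna* was most like *Acta2* (r = 0.97), *Cnn1* and *Mylk*. *Xirp1* was most like the eGFP transcript (r = 0.97), *Myocd*, which encodes the coactivator myocardin, and *Acta2*. *Pdlim7* was most like *Actn1* (r = 0.98), *Vcl* and *Stimate*, *Csrp1* like *Dstn* (r = 0.97), *Tpm1* and *Mmp17*, and *Synpo2* like *Dmpk* (r = 0.96), *Nexn* and *Itga8*. *Pdlim3* was most like *Dysf* (r = 0.94), *Gucy1b1* and *Kalrn*, *Flnc* like *2310022B05Rik* (r = 0.92), *Ift43* and *Gucy1a1*, and *Synm* like *Khdrbs3* (r = 0.91), *Me1* and *Cald1*. The highest value for *Des* was lower, with *Fgf1* at r = 0.79, then *Sync* and *1700120C14Rik*.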

How the data were processed

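Thoracic aortas of 2 mice were measured by droplet single-cell RNA sequencing (Chromium Next GEM 3′ v3.1). The deposited values are raw UMI counts per gene and cell, which the authors made with Cell Ranger 4.0.0 on mm10 with eGFP and tdTomato added; Seurat 4.0 is in the submitters' processing notes. Strand use in the counting was not given in the sources used here. The labels give 6278 and 4300 cells after filtering.

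Kept cells had over 200 genes, a mitochondrial share below 10% and 1000 to 25000 UMIs (6744 and 4698), and doublets called by Scrublet in each aorta were removed (205 cells, 3.04%, and 84 cells, 1.79%). Clustering (scanpy 1.11.5, 2000 variable genes, 30 components, 15 neighbors, Leiden at resolution 1) left out the members, the scaffold list, the reporters and mitochondrial genes. A cluster took the class with the largest share of its markers detected, needing at least 3 markers in at least 25% of cells and a mean above that of all clusters. It stayed unnamed with more than 1 leading marker of another class among its top 10 genes, with a low UMI count and no own marker among those genes, or with at least 80% of both SMC and fibroblast markers detected. Rebuilt names may differ from the study's. That score was set after cluster tables were seen.

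UMIs were summed per aorta and group. Cell types, SMC subsets and reporter states (eGFP alone or tdTomato alone) were compared with edgeR 4.0.16 (quasi-likelihood, TMM, filterByExpr, R 4.3.3) and Benjamini-Hochberg adjustment over all genes. A gene passed with an over 2-fold difference and adjusted p below 0.05. The SE was taken as log2 fold change divided by the root of F, and the scripts were tested on simulated counts. P-values rest only on the spread between the 2 aortas within cell groups. That spread was estimated over all groups of a fit, so the SMC to fibroblast test drew on the other named types too. The sums being compared came from the same aortas, so the aorta pairs them; differences between the aortas correlated across 6 cell types with r between 0.0195 and 0.227. A fit with that block was an alternative. From the list, up to 3 genes per group and direction with the largest fold changes, and up to 3 per group in the subset test, were named, with the 3 most similar genes per member; other list genes in the text were named after their values were seen. The members and lists were chosen with earlier results of these data known. Some items are not reported here.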

Additional observations from a re-analysis of the deposited data

How the results depend on the processing

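The number of members highest in SMCs was 8 in the analysis reported and 9 with the UMI minimum raised, and 8 under the other alternatives run. The number lowest in the Dlx6/Msx2 subset was 7, or 8 with that minimum and with doublets kept. Without replicate 1 or without replicate 2 these counts were 8 and 7, but the exception to the first changed: in aorta 1 alone it was *Flnc*, and in aorta 2 alone *Synm* (63.1 CPM in lymphatic endothelial cells against 40.1 CPM in SMCs); with 1 aorta left there is no spread between aortas, so no test was run on it. Mean *Des* in SMCs ranged from 56.5 to 111 CPM on leaving out an aorta, and in the Hand2 subset from 94.96 to 208 CPM. In the Dlx6/Msx2 subset *Des* was 13.5 CPM with subsets set by the markers of single cells. Counting the 2 clusters with markers of both types as fibroblasts, chosen after seeing the data, lowered the log2 ratio of SMC to fibroblast level of *Pdlim3* from 5.00 to 3.23, of *Des* from 4.58 to 3.33 and of *Synpo2* from 4.95 to 3.73. For *Xirp1* it ran from 5.56 with doublets kept to 8.03. None of the 9 ratios changed sign under any alternative run.

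Between eGFP-only and tdTomato-only SMCs, the number of members that passed moved from 0 to 1 with DESeq2, to 1 with the replicate block and to 1 with no gene filter, each time *Des*; the cause was not tested. The replicate block changed no other count: 39 and 7 list genes between SMCs and fibroblasts and 15 between subsets, as without it. Over the alternatives run, list genes higher in SMCs ranged from 34 to 40, those higher in fibroblasts from 7 to 9, and those differing between subsets from 13 to 17. The tdTomato-only groups of 38 and 43 cells and the 2 aortas limit that comparison.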

Other observations

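One of the clusters left unnamed because they held markers of both SMCs and fibroblasts was led by *Mab21l2* and *Aox3* (103 and 58 cells). In it *Pdlim3* was at 278 and 604 CPM, *Flna* at 457 and 671 CPM and *Des* at 31.5 and 64.0 CPM, and an eGFP transcript was found in 55.3% and 77.6% of cells, against 17.8% to 25.1% in the fibroblast clusters and 95.7% to 100% in the SMC clusters.

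Among myeloid clusters, the one led by *Chil3*, *Plac8* and *Ly6c2* (51 and 31 cells) had *Flna* at 668 and 537 CPM, against 281 and 251 CPM over all myeloid cells, with *Des* at 0 UMIs in both aortas.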
